A study of Mus musculus with 2 samples.

Results

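Chromosome 11 carried 6626 of the 72970 peaks in the Bio-Tdg list, or 9.08% of them. The members were chosen by the chromosome given for each peak, and chromosome 11 was selected on its high number of peaks for its length, so its density is given as a description and supports no test. The list came from 1 ChIP-seq library labelled Bio-Tdg, made from the mouse embryonic stem cell line E14. A library of BirA cells (mock), also from E14 cells, belongs to the same series, and no file of it was analysed here. Each group thus had 1 library (n = 1), no value below has a replicate error, and no background from the mock can be set beside the peaks. Positions are in mm9, the build named in the submitters' processing notes, and count from 1.

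Tdg, thymine DNA glycosylase, removes 5-formylcytosine and 5-carboxylcytosine from DNA. Tet enzymes make these bases by oxidising methylcytosine, and base excision repair then puts an unmodified cytosine in their place. In Biotag ChIP the protein carries a peptide that the ligase BirA biotinylates, and streptavidin recovers it with the DNA it is bound to. A peak is a stretch of the genome where such DNA piled up. Mouse chromosome 11 is a gene-rich chromosome that carries, among others, the Hoxb genes of body patterning and the tumour suppressor genes Trp53 and Brca1. The gene table at hand is on a later build, so no gene was placed at a peak, and no mm9 sequence was at hand to print peak sequences from.

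Over the 118.7 Mb between its first and last peak, chromosome 11 held 55.8 peaks per Mb. The other 18 autosomes together held 28.7 peaks per Mb, and single ones ranged from 19.4 on chromosome 14 to 41.6 on chromosome 19. The ratio to the other 18 was 1.95 (exact 95% Poisson interval 1.90 to 1.99). This interval and those below cover counting error only. They take peaks as independent and are too narrow where peaks cluster. At the density of the other 18 autosomes, chromosome 11 would have held 3403 peaks, so its excess was 3223 peaks.

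The excess was mapped in bins of 1 Mb, to which each peak was assigned by its midpoint. In what follows megabase 97 stands for positions 97000001 to 98000000, and likewise for the other numbers. A bin was taken as dense when it held more than 76 peaks, the 90th percentile of the bins of the other 18 autosomes. By this rule 36 of the 119 bins of chromosome 11 were dense (30.3%), against 228 of 2303 bins of the other autosomes (9.90%, which the rule itself sets close to 10%). The highest share on another autosome was 18.6%, on chromosome 19. The 3 dense bins closest to the threshold held 82, 83 and 83 peaks, and the 3 fullest bins below it held 70, 73 and 74, so no bin of chromosome 11 lay at the threshold itself.

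**Figure D1:**
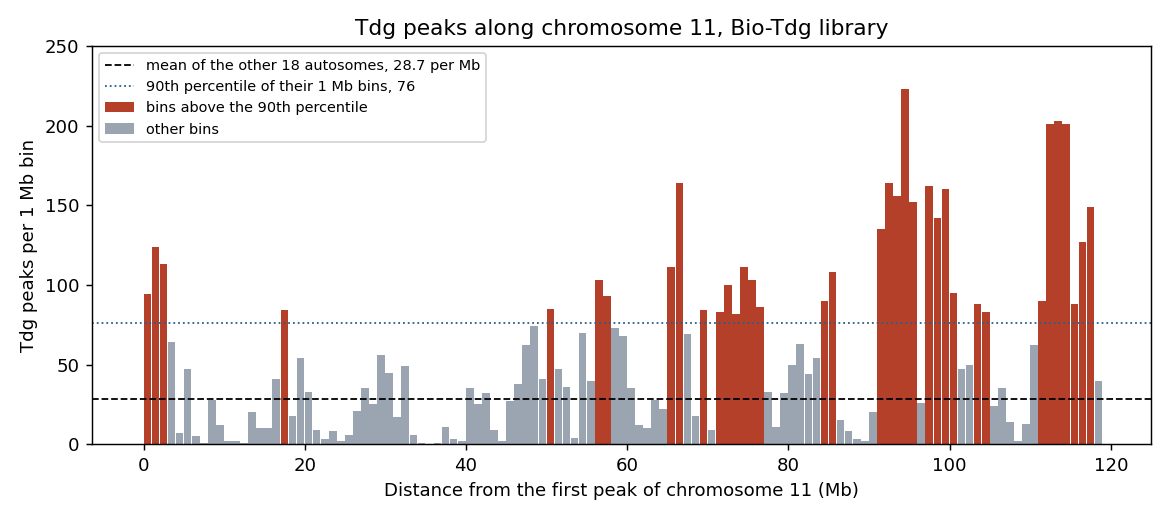
Tdg peaks in each 1 Mb bin of chromosome 11 (vertical axis, number of peaks) against distance from its first peak (horizontal axis, Mb). Bars are single bins, the dashed line is the mean of the other 18 autosomes (28.7 per Mb), the dotted line is the 90th percentile of their bins (76), and the 36 bins above it are red. The tallest group of bars lies in the right-hand part of the chromosome, with up to 223 peaks in a bin.

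The dense bins formed 12 segments of neighbouring bins, and the 3 with the largest excess lay beyond position 94000001. The largest covered 7 bins, megabases 114 to 120 (114000001 to 121000000). Its 1059 peaks were 858 more than its length would hold at the density of the other 18 autosomes, or 26.6% of the net excess of the chromosome. From its low-coordinate end its bins held 90, 201, 203, 201, 88, 127 and 149 peaks. A block of 3 bins with about 200 peaks each thus stood between flanks of about 90.

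The next segment in excess was megabases 94 to 98 (94000001 to 99000000), with 830 peaks and 21.3% of the net excess. Its 5 bins held 135, 164, 156, 223 and 152 peaks. Megabase 97, with 223 peaks and 28.4% of its sequence inside peaks, was the fullest bin of chromosome 11. Across the autosomes the fullest bin of any chromosome held 238 peaks, on chromosome 10, so chromosome 11 did not hold the single fullest bin.

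The third segment, megabases 100 to 103 (100000001 to 104000000), held 559 peaks and 13.8% of the net excess, with 162, 142, 160 and 95 peaks in its 4 bins. It was separated from the second by 1 bin. This bin, megabase 99, held 26 peaks, fewer than the 28.7 per Mb of the other autosomes, between neighbours of 152 and 162. In windows of 100 kb it held 8, 3, 4, 2, 1, 0, 0, 1, 4 and 3 peaks, so the gap between the segments was deepest in its middle. The median width of its peaks was 646.5 bp and their median 27.5 reads, the lowest of the 81 bins of chromosome 11 with at least 20 peaks in both measures.

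These 3 segments covered 16 bins and carried 61.7% of the net excess. Without them, the remaining 102.7 Mb held 40.7 peaks per Mb, still 1.42 times the density of the other 18 autosomes with all of their bins. Megabases 74 to 79 came next, with 565 peaks and 12.2% of the excess, spread evenly at 82 to 111 peaks per bin. The segment at the start of the chromosome, megabases 3 to 5, held 331 peaks (7.62% of the excess), and megabases 68 and 69 held 111 and 164 peaks (6.75%). The other 6 segments had 1 or 2 bins each and carried 1.72% to 4.36%. The 9 largest segments together carried 100.5% of the net excess. Without them the density of chromosome 11 was 0.994 times that of the other 18 autosomes with all of their bins. The segments were picked for their peaks and left out on chromosome 11 only, so a fall of the ratio follows from the choice. With dense bins left out on both sides it was 1.35.

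All 12 segments together held 4437 peaks (67.0% of the chromosome's) and 106% of the net excess. The share can pass 100% because 49 bins lay below the mean of the other autosomes and had a combined deficit of 869 peaks. Of the remaining bins, 34 lay above that mean without being dense and added 686 peaks.

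Most of the excess lay on the high-coordinate side of the chromosome. From the first peak to position 49000000, a stretch of 46 bins that ends where the summed excess was lowest and was thus chosen on these data, chromosome 11 held 1200 peaks or 26.1 per Mb. This is 0.911 times the density of the other 18 autosomes, a deficit of 118 peaks despite 4 dense bins. The other 73 bins held 5426 peaks or 74.6 per Mb, 2.60 times that density. Within the first 46 bins the summed excess was not level. It reached 281 peaks after megabase 6, past the segment at the start of the chromosome, and fell below zero at megabase 39.

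A split at the midpoint does not depend on the counts, and it turned the deficit of the first part into an excess. The part with the lower coordinates, which is nearer the centromere on mouse chromosomes, held 1996 peaks (33.6 per Mb) and the far part 4630 (78.0 per Mb), and the far part carried 90.9% of the excess. Against the mean of the other autosomes the near part was 1.17 times as dense, an excess of 295 peaks. The deficit of the low-coordinate side thus depends on where the chromosome is divided, while the far part carried most of the excess in both splits. Peaks lay mostly in the far part on other autosomes as well, with 33.4 per Mb there and 23.9 in the near part when the 18 are pooled. Set against these, chromosome 11 was 2.34 times as dense in its far part, where the next chromosome was 4 with 54.9 per Mb. In its near part it was 1.404 times as dense, and 3 autosomes were denser there, the highest being chromosome 17 with 53.2 per Mb. The ratio of far to near was 2.32 on chromosome 11, the fifth highest of the 19 autosomes, which ranged from 0.394 on chromosome 16 to 4.02 on chromosome 15.

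**Figure D2:**
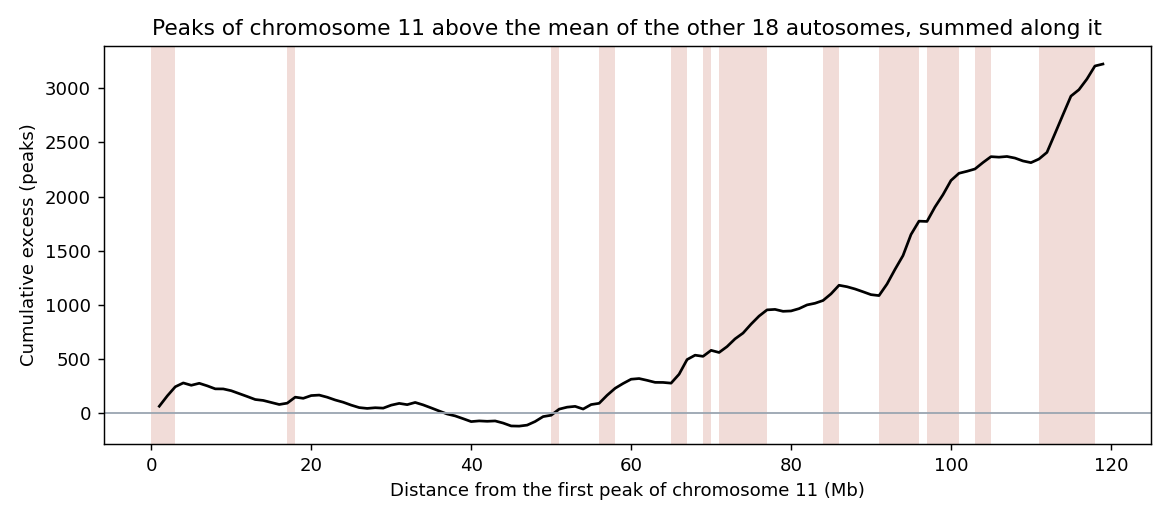
Excess of chromosome 11 (peaks above the mean of the other 18 autosomes, vertical axis) summed from its first peak onward against distance from that peak (Mb). Shaded bands are the dense bins. The line first rises to 281 peaks after megabase 6 and falls to 118 below zero at the end of megabase 48. It then climbs to 3223, most steeply through the bands of megabases 94 to 98 and 114 to 120.

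Chromosome 11 also had sparse stretches. Megabases 36 to 42 held 24 peaks in 7 bins, among them megabase 38, the 1 bin of the chromosome without a peak. Its longest stretch without a peak ran from 37051094 to 39863866, 2.81 Mb. The longest such stretch on the other autosomes ranged from 1.57 to 7.47 Mb with a median of 2.96 Mb, so that of chromosome 11 was close to the middle. Megabases 24 to 28 held 28 peaks in 5 bins, and megabases 90 to 92, directly before the rise to the 94 to 98 segment, held 13 in 3 bins. Bins with fewer than 5 peaks made up 13.4% of chromosome 11 and 15.6% to 38.3% of each other autosome, so the chromosome had the lowest share of nearly empty bins.

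The whole distribution of bin counts lay higher, and the difference was largest in relative terms among sparse and middling bins. The median bin held 40 peaks on chromosome 11 and 15 on the other 18 autosomes. The 25th percentiles were 11.5 and 4, the 75th 85.5 and 41 and the 95th 162 and 103, so the ratio went from 2.88 at the 25th to 1.57 at the 95th. The share of bins with at least 50 peaks was 42.0%, against 9.55% to 31.3% on the others. At every limit computed from 5 to 200 peaks, in steps of 5, chromosome 11 had the highest share.

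**Figure D3:**
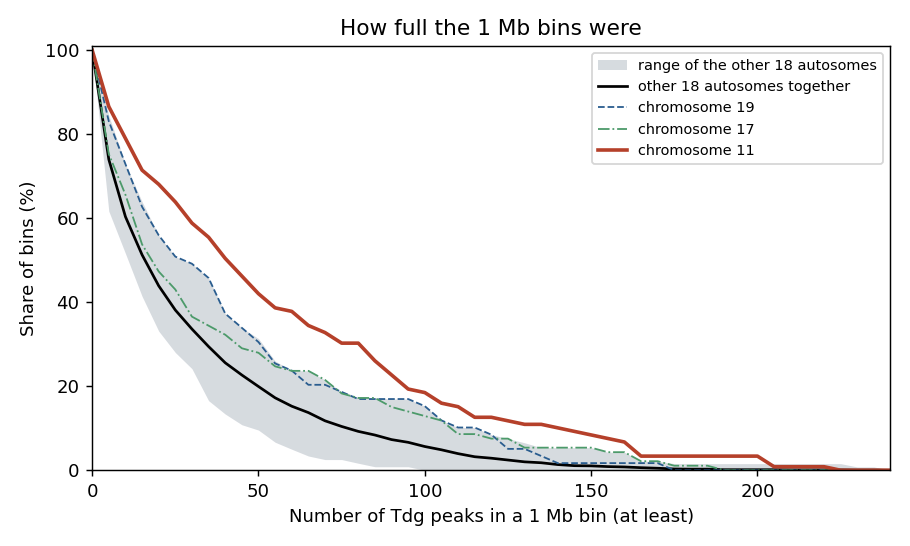
Share of 1 Mb bins (vertical axis, %) that hold at least the number of Tdg peaks on the horizontal axis. The red line is chromosome 11, the black line the other 18 autosomes together, the grey band their range, and the broken lines chromosomes 19 and 17, the next in density. Chromosome 11 lies above the band from 5 to 200 peaks, and at 50 peaks it stands at 42.0%.

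The excess was split into how many bins were dense and how full they were. Dense bins of chromosome 11 held a mean of 123 peaks and those of the other autosomes 111. Bins below the threshold held 26.4 and 19.5. Counted over the 119 bins, the larger number of dense bins made up 68.2% of the difference, fuller dense bins 14.1% and fuller bins below the threshold 17.7%. Here the number of dense bins was weighted with the mean counts of the other autosomes. Fullness was weighted with the share of dense bins on chromosome 11. Other weights or another threshold would give other shares. With dense bins left out on both sides, the density of chromosome 11 was 26.4 peaks per Mb against 19.6, a ratio of 1.35 (1.29 to 1.41). The remainder of the chromosome was therefore still denser than the remainder of the others. There were 10.1 segments per 100 Mb on chromosome 11 against 4.81 on the others. The median segment had 2 bins against 1, and 4 of 12 segments had at least 4 bins against 18 of 110. Single bins made up 3 of the 12 and 65 of the 110, a difference that was not tested. The longest single block was not on chromosome 11. It ran over 14 bins on chromosome 4 (megabases 128 to 141), against 7 on chromosome 11.

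Peaks of chromosome 11 ranged from 368 to 40889 bp in width, with a median of 878 bp and quartiles of 625 and 1381 bp. The median of the other 18 autosomes was 849 bp, and single ones ranged from 823 to 885 bp. Chromosomes 7 and 17, at 885 and 883 bp, were above chromosome 11, so its median was within the spread of the others. Peaks covered 6.37% of chromosome 11, against 3.08% of the other 18 together and at most 4.67% of one of them.

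The reads in a peak were recovered from its score and width for 6348 of the 6626 peaks, as set out in the processing. The other 278 have scores too high for this. The median was 43 reads with quartiles of 27 and 80 on chromosome 11, and 41 with quartiles of 26 and 77 on the other 18. The median density of reads was 49.8 per kb on chromosome 11 and 48.7 to 50.5 per kb on the others, where it was 49.5 when pooled. Single peaks were thus nearly alike in reads and width, while their number per Mb differed 1.95-fold.

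The excess was present among weak and strong peaks, and the ratio was highest among the strongest. For peaks of 21 to 26 reads, chromosome 11 held 12.9 per Mb against 7.07, a ratio of 1.82 (1.73 to 1.92). The ratio was 1.87 for 27 to 41 reads, 1.96 for 42 to 77 and 1.93 for 78 to 129. It was 2.17 (2.01 to 2.33) for 130 to 239 reads and 2.98 (2.64 to 3.35) for the peaks without recovered reads, which had the highest scores. With 1 library the difference between these classes was not tested. In all 6 classes the ratio was higher than that of any other autosome, whose highest was 2.01 for chromosome 19 in the last class. For width the ratio rose from class to class, from 1.83 (1.74 to 1.92) up to 613 bp to 2.38 (2.22 to 2.55) from 1936 bp upward. Peaks above 3 kb, a part of this widest class, had a ratio of 3.03 (2.62 to 3.50).

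**Figure D4:**
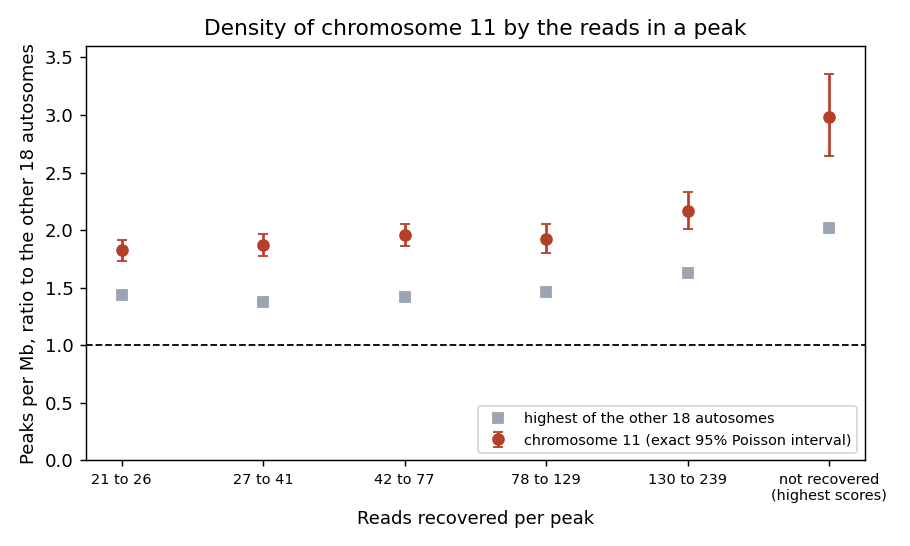
Peaks per Mb on chromosome 11 divided by those on the other 18 autosomes (vertical axis) for classes of recovered reads per peak (horizontal axis). Circles are chromosome 11 with exact 95% Poisson intervals, squares the highest single other autosome, and the dashed line marks 1. The ratio runs from 1.82 in the weakest class to 2.98 in the class without recovered reads.

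A score of 3100 was the commonest in the list and lies near its upper end. It was reached or passed by 262 peaks of chromosome 11 (3.95%), against 2.57% of peaks on the other 18 autosomes and at most 3.47% on one of them. Peaks wider than 3 kb numbered 189 (2.85%), against 1.83%. Of these, 200 of the 262 and 147 of the 189 lay in dense bins (76.3% and 77.8%), which held 67.0% of all peaks of the chromosome. On the other 18 autosomes 916 of 1688 peaks at the top score lay in dense bins, which held 38.4% of their peaks. A concentration of top scores in dense bins was thus not particular to chromosome 11. Within chromosome 11, megabase 69 had the most of both kinds, with 16 peaks at the top score and 14 wider than 3 kb among its 164. At the top score it was followed by megabase 97 with 14, megabase 120 with 13 and megabases 3 and 117 with 12 each. Above 3 kb it was followed by megabase 117 with 12, megabase 120 with 11 and megabase 97 with 9.

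Peaks in equally crowded bins were then set side by side, with classes bounded by the 25th, 50th, 75th and 90th percentiles of the other autosomes' bins. In dense bins the median width was 891 bp on chromosome 11 and 890 bp on the others, and the median was 44 reads on both. The small difference in median width over the whole chromosome was thus not seen among peaks of dense bins, whose share at the top score was 4.51% against 3.63%. In bins of 42 to 76 peaks the medians were 867.5 and 842 bp and the shares 2.87% and 2.32%. In bins of 16 to 41 peaks the medians were 861 and 811 bp, and the share at the top score 3.39% against 1.69%. In that class single other autosomes reached 865 bp, above chromosome 11, and at most 2.46% at the top score. On chromosome 11 it held 28 bins with 825 peaks, so its share rests on few peaks. The 2 sparser classes went the other way. In bins of 5 to 15 peaks the medians were 800 and 819.5 bp and the shares 0.541% and 1.27%. In bins of up to 4 peaks the medians were 687 and 781 bp, and 0 of 31 peaks of chromosome 11 had the top score, which allows a share of up to 9.68%, against 0.884%. Against the pooled others, peaks of chromosome 11 were thus wider in 2 middle classes, narrower in the sparse ones and alike in the dense one. In no class did its median width leave the range of single other autosomes. From the sparsest class up these ranges were 687 to 883.5, 744 to 891, 778 to 865, 799 to 894 and 821.5 to 980 bp. Its share at the top score left that range only in bins of 16 to 41 peaks. In dense bins the range was 2.56% to 6.57%.

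Along the chromosome, width and reads varied less than number. Over the 81 bins with at least 20 peaks the median width ranged from 646.5 to 1178 bp and the median reads from 27.5 to 60. The highest of both was in megabase 70, which held 69 peaks with a median of 56.9 reads per kb and lay directly beside the crowded megabase 69. Across these bins, which are not independent, Spearman's rho between number of peaks and median width was 0.299, and between number of peaks and median reads per kb 0.165. Peak number in neighbouring bins was related with a rho of 0.656 over 118 pairs, within the range of the other autosomes of 0.431 to 0.713.

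Peaks lay closer together on chromosome 11. Short distances and runs go with the high density on which it was chosen, so they are given as descriptions. On the other 18 autosomes together the median distance between midpoints of neighbours was 7445 bp. On chromosome 11 it was 5476 bp, the shortest of the 19 autosomes, followed by 5740 bp on chromosome 17. Distances under 5 kb made up 47.2% on chromosome 11 and 46.2% on chromosome 17. When peaks less than 1 kb apart were joined, 5148 runs were left. Single peaks made up 79.7% of them, against 82.9% on the other autosomes. Runs of at least 4 peaks numbered 95 and held 432 peaks, 6.52% of the chromosome's, against 4.14% on the other 18 together and at most 5.94% on one of them. Of these 95 runs 79 lay in dense bins, which held 67.0% of the chromosome's peaks and are crowded by definition. Megabase 97, the fullest bin, had 9 runs with 53 peaks.

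The run with the most peaks lay in megabase 97, from 97517325 to 97536611. It joined 10 peaks over 19.3 kb, with 90.7% of it inside peaks. Its widest peak, 97522520 to 97528872, was 6353 bp wide and had a score of 3100. The 3 before it had 39, 80 and 193 reads, and the 6 after it 120, 112, 40, 50, 31 and 22. For the widest peak itself no reads were recovered. Away from it the reads fell on both sides, apart from the rise from 40 to 50, and narrower peaks of the run had fewer reads. Within the same megabase, windows of 100 kb held 13 to 31 peaks, and the window from 97600001 to 97700000 had 38.5% of its sequence inside peaks.

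The most crowded window of 100 kb on chromosome 11 was 117800001 to 117900000, with 33 peaks over 42.6% of its length. In the 3 largest segments the median window held 15.5, 16 and 14 peaks. Over the 1190 windows of the whole chromosome the median was 3, and 329 held no peak. Of the 160 windows in the 3 segments, 63, 47 and 37 held at least 5 peaks, in the order of the segments given above, and 2 were empty. On the whole chromosome 478 windows (40.2%) held at least 5 peaks. The segments were picked for their peaks, so a higher share in them follows from the choice. Within these 3 segments the peaks were spread over most windows. In the other segments the share of such windows went down to 60%, in megabase 72.

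The longest run lay at the start of the chromosome, from 3025458 to 3100222, and 98% of its 74.8 kb was inside its 7 peaks. Its 7 peaks were 511, 1465, 1853, 18682, 2489, 7346 and 40889 bp wide. The last 4 had a score of 3100, and the second, with 170 reads over 1465 bp, had 116 reads per kb, the highest recovered on the chromosome. Of the 5 widest peaks of chromosome 11, 3 belonged to this run, and another, 3187779 to 3194612 with 6834 bp, lay in the same megabase. The fifth, 98820390 to 98827375 with 6986 bp, lay in megabase 98. The run made up 0.968% of the sequence inside peaks on the chromosome. Without it the ratio to the other 18 autosomes in covered sequence went from 2.07 to 2.05, so this run bore little on the excess.

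The number of genes was set beside the number of peaks, from a RefSeq table on GRCm38.p6 that was used for gene numbers per chromosome. Chromosome 11 has 1609 protein-coding genes, or 13.6 per Mb of the span of its peaks. Chromosome 7 had nearly the same density, 13.6 per Mb, with 33.4 peaks per Mb, and the other 17 had 5.75 to 12.1. Per gene, chromosome 11 held 4.12 peaks (4.02 to 4.22). The other 18 autosomes together held 3.44, which gives a ratio of 1.20 where the ratio per Mb was 1.95. Chromosomes 15 and 12 held more per gene, 4.18 each, and chromosomes 4 and 5 held 4.11 and 4.10. Per gene chromosome 11 thus had rank 3 from the highest among the autosomes. The intervals of all 4 overlap its own, but they cover counting error only, so the overlap decides no difference between chromosomes.

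Over the 18 other autosomes peaks per Mb went up with genes per Mb (Pearson's r 0.804, Spearman's rho 0.851, points that share 1 library). The straight line through these 18 gives 41.7 peaks per Mb at the gene density of chromosome 11, 14.1 below the observed 55.8. The largest distance above the line among the 18 was 5.97 peaks per Mb, on chromosome 4. Chromosome 7, the only other autosome with so high a gene density, lay below the line with 33.4 peaks per Mb. How far the line at this gene density depends on chromosome 7 was not tested. The part of gene number in the excess was not tested.

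**Figure D5:**
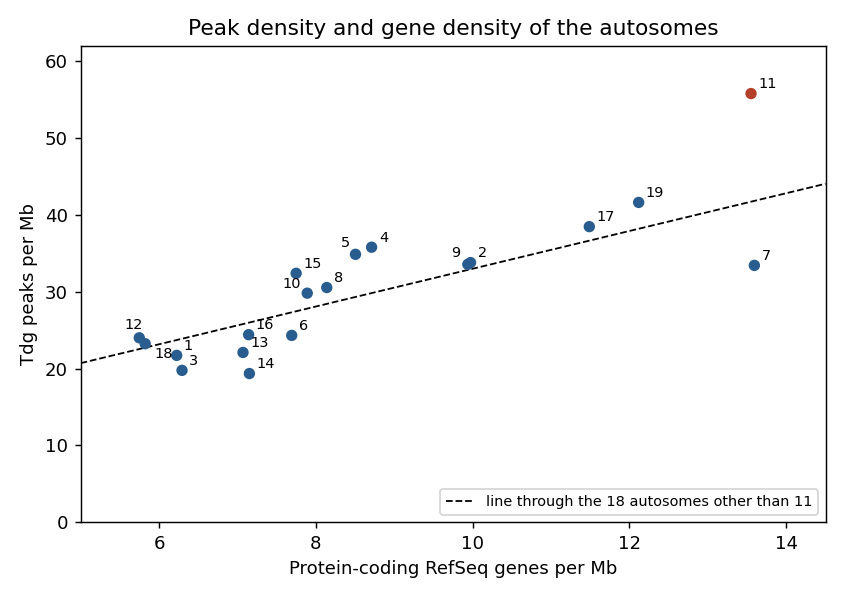
Tdg peaks per Mb (vertical axis) against protein-coding RefSeq genes per Mb (horizontal axis) for the 19 autosomes, each point 1 chromosome with its number beside it. The dashed line was fitted to the 18 autosomes other than 11. Chromosome 11, in red, lies 14.1 peaks per Mb above the line, and chromosome 7 has nearly the same gene density with 33.4 peaks per Mb.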

How the data were processed

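The deposited file holds 1 row per peak of the Bio-Tdg library, with start, end and a score that is the authors' own value. Per the submitters' processing notes the tools were CASAVA 1.8, Bowtie 0.12.7 and MACS 1.4.1 (roles not stated) and the build mm9. The calling threshold, the control and the definition of the score were not given in the sources used here. Scores served to describe and filter peaks within the list. Reads per peak were recovered as the whole number whose Poisson tail, on a negative log10 scale, gives the score when the mean is 1.13 reads per kb (fitted to the list, with width set to at least 370 bp). This held within 0.01 score units for all 70884 peaks below the highest scores. The same mean served for all of these peaks, so their scores followed from reads and width without a background that varied by position. Their scores and recovered reads are thus not adjusted for local background. Peaks at the highest scores were not part of this check, and whether a control entered the choice of peaks was not tested. Recovered reads are 1 higher if the caller counted the number itself in the tail. The depth of the library is not known.

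Bins, segments and excess were defined as in the results, with length taken from first to last peak. The binning with its excess and the recovery of reads were tested on simulated data, and the other steps were not. The chromosome, the bins and the alternatives were chosen with earlier results of these data known. Peaks named are the 5 widest, the longest run, the run with the most peaks, the 3 segments of largest excess with their fullest bins and the longest stretch without a peak. The run with the most peaks and the 100 kb windows were added after values were seen. With 1 library no test between samples was made. Scripts ran in Python 3.11.15 with pandas 2.3.3, numpy 2.4.6, matplotlib 3.10.9 and scipy 1.17.1.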

Additional observations from a re-analysis of the deposited data

How the results depend on the processing

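Chromosome 11 stayed denser than the other 18 autosomes in all 10 alternatives. It was chosen for its density and the alternatives use the same peaks, so this outcome was nearly set in advance. No result changed direction in the 62 values computed, some of which were added after seeing the data. A count of dense bins cannot change direction, and bins chosen as full have a positive excess by construction. For these results too the outcome was nearly set in advance. Of the 62 values 25 counted as moved from the main result, among them 8 of the 10 density ratios. The density ratio was 2.05 and 2.11 for scores of at least 500 and 1000, 1.86 and 1.63 with peaks merged within 1 and 5 kb, 2.07 in bases covered, 1.85 against the median autosome, 1.81 over bins with a peak and 1.20 per protein-coding gene, the last chosen after seeing the data. Dense bins numbered 19 of 60 with bins of 2 Mb, 66 of 238 with 0.5 Mb and 19 of 119 at the 95th percentile. Their share of the excess was 94.2% with merging within 5 kb, 101.4% with 2 Mb bins, 73.3% and 120.2% at the 95th and 80th percentiles and 110.2% against the median autosome. The ratio outside dense bins was 1.42 with 0.5 Mb bins, 1.44 with shifted bins and 1.60 at the 95th percentile. The difference in median width, 29 bp, was 68.5 bp at a score of at least 1000 and 83 and 375 bp with merging within 1 and 5 kb, which joins peaks and so widens them. Merging within 5 kb lowered the share of the 3 largest segments from 61.7% to 46.9% and that of the far part from 90.9% to 82.9%. Intervals and thresholds say nothing about other cultures, and sparse bins may hold binding below the unknown calling threshold. No paired analysis was possible because a single library was analysed here.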
